A study of Mus musculus with 12 samples.

Results

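The 10 genes described here are classical markers of cortical inhibitory interneurons: Gad1, Gad2 and Slc32a1, which all of these cells share, Lhx6, and the subclass markers Pvalb, Sst, Vip, Npy, Reln and Htr3a. They were taken by gene symbol, 10 of the 23354 symbols in the expression table, and each had 1 row. Their levels were measured by RNA-seq in the cortex of 12 mice at postnatal day 16 on a C57BL/6 background, in 4 groups of 3. Dnmt1 CKO mice were homozygous for floxed Dnmt1 and carried cre at the Olig1 locus in the heterozygous state (Olig1cre/+;Dnmt1flox/flox), and Dnmt3a CKO mice carried the same cre with floxed Dnmt3a (Olig1cre/+;Dnmt3aflox/flox). The controls were littermates with both floxed alleles and no cre (Olig1+/+), so that cre and the loss of an Olig1 copy cannot be told apart from the deletion. Dnmt1 and Dnmt3a encode DNA methyltransferases, and Olig1 encodes a transcription factor of the oligodendrocyte lineage.

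Interneurons use GABA as their transmitter and set the timing and gain of excitatory neurons in the cortex. They are born in the embryonic ganglionic eminences and migrate into the cortex. Those of the medial eminence express Lhx6 and mostly become Pvalb or Sst cells, and those of the caudal eminence mostly become Vip or other Htr3a-expressing cells, among them Reln cells. As background, Olig1 is best known in oligodendrocyte progenitors but is also expressed in progenitors of the embryonic ventral telencephalon. The paper reports from antibody staining that both enzymes were missing in oligodendrocyte nuclei (Olig2+) and still present in those of neurons (NeuN+). That staining names no interneuron marker, so whether any interneuron had lost either methyltransferase was not measured apart from other neurons.

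The main result was found for Pvalb, which encodes the calcium buffer parvalbumin of fast-spiking interneurons. Its level was lower in Dnmt1 CKO than in Dnmt1 Control cortex, where it passed the test narrowly and did not pass in 14 of 20 alternative fits. It was 27.33 FPKM in Dnmt3a CKO against 20.26 in Dnmt3a Control cortex, without passing the test in that line. The effects in the 2 lines differed in the test of that difference. None of the other 9 markers passed the test in either line or in the comparison of the lines. The genes for GABA synthesis and release, which every interneuron uses, kept overlapping levels between CKO and control in both lines.

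All values are FPKM, which count sequenced fragments relative to transcript length and to the size of the library, so that levels can be compared between genes. A fold change is the difference of mean log2(FPKM + 0.1) between groups. It was tested with limma across the 14115 rows whose mean reached 0.5 FPKM, and a row was called at a Benjamini-Hochberg adjusted p below 0.1 (10% FDR). All 10 markers were among these rows. The exact permutation test of 3 against 3 libraries, two-sided over 20 arrangements, cannot give a p below 0.1.

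The libraries were of similar depth, from 0.856 to 1 relative to the deepest, as read from the spacing of the lowest values, and the number of reads was not given. Dnmt1 had 10.2 FPKM in Dnmt1 Control and 8.49 in Dnmt1 CKO cortex, without overlap (limma adjusted p = 0.29). Dnmt3a was at 13.6 to 15.4 FPKM in the Dnmt3a CKO libraries and at 31.1 and 28.7 in replicates 1 and 3 of its controls. The library labelled Dnmt3a Control replicate 2 stood apart at 16.9, near the CKO libraries, so the marker results of that line are also given without it, which was not done for the gene lists. Olig1 was at 46.5 FPKM in Dnmt1 Control and fell to 20.3 in Dnmt1 CKO (limma adjusted p = 0.0043). It was 47.4 and 33.9 FPKM in Dnmt3a Control and CKO. Replicates 1 to 3 of Dnmt3a Control had 48.37, 49.84 and 44.1 FPKM of Olig1, and those of Dnmt3a CKO had 30.61, 38.77 and 32.21. By Olig1, unlike by Dnmt3a, the library labelled Dnmt3a Control replicate 2 lay with the other controls. The 11 excitatory cortical neuron genes summed to 1030 to 1140 FPKM in Dnmt1 Control, 1100 to 1130 in Dnmt1 CKO, 1020 to 1060 in Dnmt3a Control and 1100 to 1140 in Dnmt3a CKO, the last without overlap with its controls. The 8 genes of all neurons summed to 1800 to 1930 over the libraries, and no gene of either list was called. Choroid plexus genes, 5 in the list, summed to 3.16 FPKM in Dnmt3a CKO replicate 3, to 6.10 in Dnmt3a Control replicate 3 and to 84.4 to 419 in the other 10 libraries, and none of the 5 was at 0 or called. Of 7 olfactory bulb and neuroblast genes 5 were tested and none was called, with sums of 16.7 to 21.5 FPKM. The labels give no sex, and Xist, which is expressed in female cells, was at 1.69 to 1.85 FPKM in all Dnmt1 CKO libraries and ran from 0.03 to 49.4 in Dnmt1 Control, 0.04 to 49.4 in Dnmt3a Control and 0.05 to 46.2 in Dnmt3a CKO. Mean Xist was 16.5, 16.5 and 15.5 FPKM in Dnmt1 Control, Dnmt3a Control and Dnmt3a CKO, and 1.78 in Dnmt1 CKO. No Dnmt1 CKO library came near the highest value of any other group. The sexes of the Dnmt1 CKO mice are therefore not known, and they may not be balanced against their controls. Genes of striatal projection neurons were present as well, and their values stand beside those of Gad1, Gad2 and Slc32a1.

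Because the series deletes DNA methyltransferases, the promoters of Pvalb are shown first, with that of Reln, whose promoter is well known as CpG-rich. The sequences are the 250 bases before the annotated start (RefSeq, GRCm38.p6), written 5′ to 3′ on the gene's strand, the minus strand for both genes, with each CG, the dinucleotide that these enzymes methylate, in capitals. Pvalb has 2 annotated starts, at chr15:78204238-78204487 and chr15:78206401-78206650 for these windows, and the Reln window lies at chr5:22344706-22344955.
Pvalb window 1: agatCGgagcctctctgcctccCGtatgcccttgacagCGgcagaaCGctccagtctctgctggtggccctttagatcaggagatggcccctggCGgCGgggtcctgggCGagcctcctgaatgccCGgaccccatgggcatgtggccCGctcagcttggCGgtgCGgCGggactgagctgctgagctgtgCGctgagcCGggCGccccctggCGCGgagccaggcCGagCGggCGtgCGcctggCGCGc
Pvalb window 2: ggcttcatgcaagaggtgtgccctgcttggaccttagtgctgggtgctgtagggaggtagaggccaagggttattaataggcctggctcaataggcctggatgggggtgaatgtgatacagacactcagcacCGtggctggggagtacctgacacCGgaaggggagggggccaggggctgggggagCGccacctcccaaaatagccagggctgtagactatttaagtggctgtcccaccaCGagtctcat
Reln: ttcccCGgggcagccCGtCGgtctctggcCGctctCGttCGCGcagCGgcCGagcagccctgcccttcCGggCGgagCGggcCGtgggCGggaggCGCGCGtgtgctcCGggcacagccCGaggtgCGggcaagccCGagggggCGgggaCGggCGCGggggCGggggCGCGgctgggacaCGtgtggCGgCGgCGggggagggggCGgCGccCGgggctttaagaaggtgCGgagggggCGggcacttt
The first Pvalb window, inside the annotated gene, held 23 CG and the second, directly before its outer end, held 4. As many as 23 CG were found in 13.3% of all 32851 windows and as many as 4 in 62.2%, where the median was 6 and 92.1% held at least 1. Reln had 37, a number reached by 2.2% of windows. Entries were found for 9 of the 10 markers, with 12 windows in all, of which 10 held more CG than the median. Npy had 21 CG, Gad1 17, Gad2 13, Slc32a1 12, Sst 8 and Vip 3, and the 3 windows of Lhx6 held 7, 17 and 14. There was no entry for Htr3a. Methylation was not measured in these samples, so these counts describe sequence only.

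The markers spanned a wide range of levels. Sst, the neuropeptide somatostatin, was the highest of the 10 at a mean of 249 FPKM over the 12 libraries (range 223 to 283), above 98.8% of all rows tested. Npy, neuropeptide Y, followed at 116 FPKM, then Gad1 at 71.1. Gad2 (29.9 FPKM), Slc32a1 (29.2), Pvalb (20.1) and Vip (18.9) overlapped with their neighbours in this order: Gad2 was above Slc32a1 in 7 of 12 libraries, Slc32a1 above Pvalb in 11 and Pvalb above Vip in 7. Reln came at 11.7 FPKM, Lhx6 at 5.43 and Htr3a lowest at 2.56, above 23.0% of rows. No library of Sst, Npy, Gad1, Vip, Reln or Lhx6 fell into the range of the gene next below it.

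**Figure D1:**
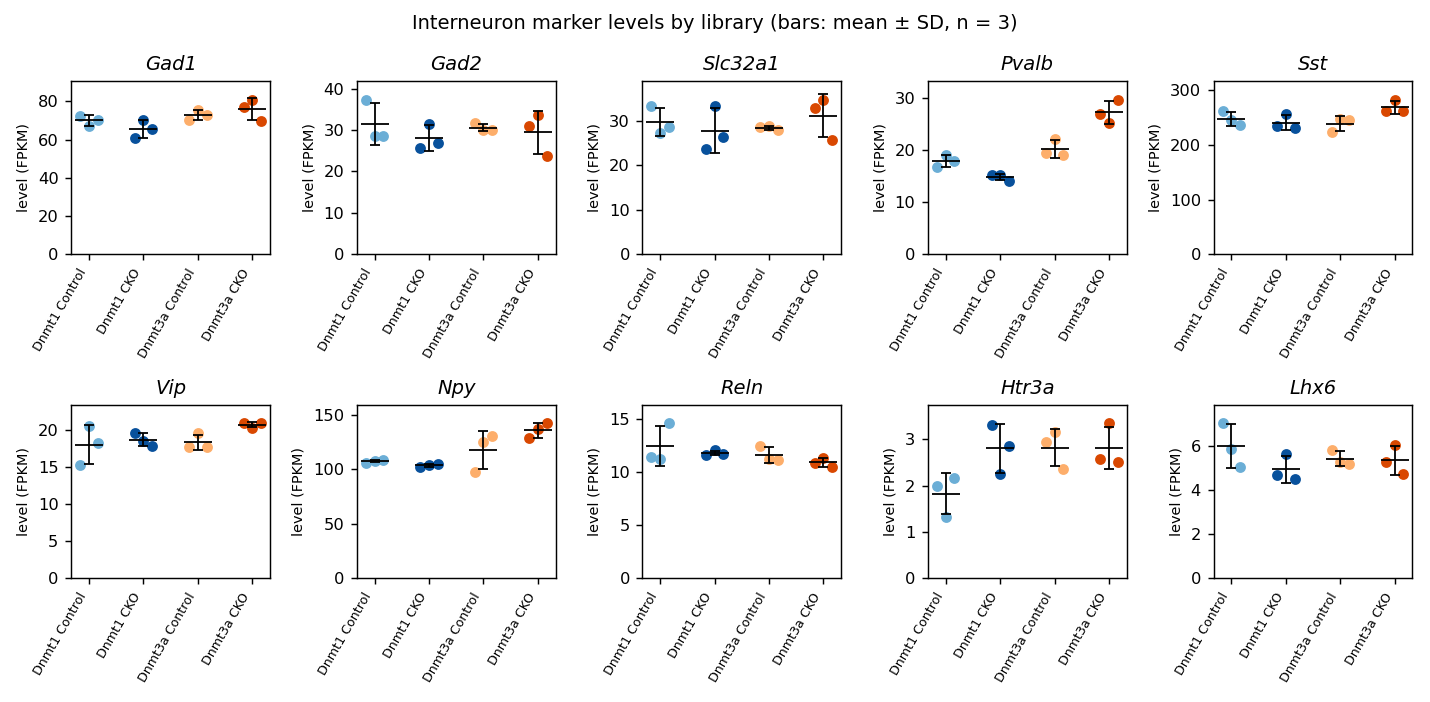
Level of each of the 10 markers (vertical axis, FPKM, from 0, scaled per gene) in every library of the 4 groups; points are libraries, the horizontal bar is the mean and the whiskers the SD (n = 3). Pvalb runs from 14.1 to 15.2 in Dnmt1 CKO up to 25.3 to 29.8 in Dnmt3a CKO, while for Gad1, Gad2, Slc32a1, Reln and Lhx6 the points of CKO and control overlap in both lines.

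The first comparison asked whether loss of Dnmt1 under Olig1-cre changed these markers. Pvalb was at 16.81, 19.03 and 18.00 FPKM in replicates 1 to 3 of Dnmt1 Control and at 15.21, 15.16 and 14.11 in Dnmt1 CKO. All CKO libraries were below all controls. The mean fell from 17.95 ± 1.11 to 14.83 ± 0.62 FPKM (SD, n = 3 each), a log2 fold change of -0.27 (SE 0.0565, 95% interval -0.41 to -0.13; limma adjusted p = 0.098; exact permutation p = 0.1). Since the tissue was measured as a whole, fewer Pvalb cells and less Pvalb RNA per cell cannot be told apart, here or in any result that follows. The call stood just inside the threshold and was lost in 14 of 20 alternative fits, with log2 fold changes from -0.32 to -0.23 and adjusted p from 0.048 to 0.27. Over all rows 3.15% were called in this comparison, against 1 of the 10 markers.

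In the same libraries the summed level of 9 oligodendrocyte genes was 1870 to 2180 FPKM in Dnmt1 Control and 570 to 663 in Dnmt1 CKO, and all 9 fell, with a log2 fold change of -1.67 for Mbp (limma adjusted p = 0.0023). None of these genes was at 0 in any library. In the same libraries the astrocyte gene Gfap (log2 fold change 0.45, limma adjusted p = 0.0065) and the microglial gene C1qa (0.34, limma adjusted p = 0.013) rose, each the only called gene of 6 in its list. The astrocyte list summed to 614 to 635 FPKM in Dnmt1 Control and 609 to 616 in Dnmt1 CKO, and the microglia list to 78.6 to 83.8 and 83.6 to 87.2. The endothelial list summed to 64.4 to 71.4 and 60.2 to 64.5, with none of 5 genes called, and no gene of these lists was at 0. The part of these changes in the level of Pvalb was not tested. With the level of Xist as a covariate the log2 fold change of Pvalb was -0.27 and no longer called (limma adjusted p = 0.16). The difference of Pvalb between the lines, tested further on, was -0.71 in that fit and called (limma adjusted p = 0.0084). Xist was at 1.69 to 1.85 FPKM in all Dnmt1 CKO libraries and spread far more widely in each other group. This covariate therefore cannot be read as sex alone. Across all rows tested, the fold changes had a median of -0.02 on the log2 scale.

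Htr3a, a serotonin-gated channel of caudal eminence-derived cells, had 1.99, 1.31 and 2.17 FPKM in Dnmt1 Control and 3.31, 2.26 and 2.85 in Dnmt1 CKO. The groups did not overlap, but the gap between the highest control and the lowest CKO library was small. The log2 fold change was 0.61 (SE 0.22, 95% interval 0.06 to 1.15) and did not pass (limma adjusted p = 0.29, exact permutation p = 0.1). The Dnmt1 Control libraries were the lower ones: Htr3a averaged 1.82 FPKM there, and 2.80, 2.82 and 2.81 in Dnmt1 CKO, Dnmt3a Control and Dnmt3a CKO.

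Npy was at 106.4, 107.7 and 108.3 FPKM in Dnmt1 Control and at 102.0, 104.2 and 105.0 in Dnmt1 CKO. The groups were tight and did not overlap, yet the difference was small, with a log2 fold change of -0.05 (95% interval -0.12 to 0.01, limma adjusted p = 0.44). With Pvalb and Htr3a, 3 of the 10 markers had groups that did not overlap, where 20.8% of all rows tested did so. Of the 10 markers 8 were lower and 2 higher in CKO, with a median log2 fold change of -0.08.

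Among the remaining markers of this line, CKO and control values overlapped for each. Sst was at 262.0, 246.2 and 236.0 FPKM in Dnmt1 Control and at 234.2, 257.2 and 231.4 in CKO, a log2 fold change of -0.04 (95% interval -0.20 to 0.11). Vip, the vasoactive intestinal peptide of interneurons that mostly contact other interneurons, was at 15.19, 20.49 and 18.25 FPKM in controls and 19.57, 18.44 and 17.82 in CKO, a difference of 0.06 on the log2 scale (-0.21 to 0.33). The control values spread more widely than those of CKO. Reln, the secreted glycoprotein reelin, was at 11.45, 11.26 and 14.63 FPKM in controls and 11.66, 12.07 and 11.69 in CKO, a difference of -0.07 (-0.32 to 0.19), and without Control replicate 3, the high library, the difference was 0.06. Lhx6, the transcription factor that directs Pvalb and Sst fates, was at 7.04, 5.89 and 5.07 FPKM in controls and 4.70, 5.64 and 4.49 in CKO. Its mean log2 fold change of -0.27 had an interval from -0.62 to 0.08 (limma adjusted p = 0.46), and it ran from -0.38 to -0.15 when 1 library was left out, the latter without Control replicate 1.

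The second comparison asked the same of Dnmt3a. Pvalb was at 19.41, 22.24 and 19.12 FPKM in Dnmt3a Control and at 26.92, 25.32 and 29.76 in Dnmt3a CKO. Here every CKO library was above every control. The means were 20.26 ± 1.72 and 27.33 ± 2.25 FPKM (SD, n = 3 each), a log2 fold change of 0.43 (SE 0.0822, 95% interval 0.23 to 0.63) with an unadjusted limma p of 0.002. It did not pass across all rows (limma adjusted p = 0.66; exact permutation p = 0.1), in a comparison in which 0.0142% of rows were called, 2 of 14115, and 1037 rows had an unadjusted p below 0.05. Without the library labelled Dnmt3a Control replicate 2 the log2 fold change was 0.50 (adjusted p = 0.71). The oligodendrocyte genes summed to 2360 to 2810 FPKM in these controls and 2550 to 2920 in CKO, and none of the 9 was called.

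Sst and Vip were likewise higher in every Dnmt3a CKO library than in every control without passing the test. Sst had 223.4, 248.0 and 245.3 FPKM in controls and 262.3, 283.0 and 262.4 in CKO, a log2 fold change of 0.17 (95% interval 0.03 to 0.32, limma adjusted p = 0.66). Vip had 17.68, 19.48 and 17.66 FPKM in controls and 20.84, 20.26 and 20.84 in CKO, a log2 fold change of 0.18 (0.06 to 0.29, limma adjusted p = 0.66). Without the library labelled Dnmt3a Control replicate 2 these were 0.20 and 0.22, neither past the threshold (adjusted p = 0.72 and 0.69). With Pvalb, 3 of the 10 markers did not overlap between the groups, against 12.8% of all rows tested, and none was called. Genes of other cell types were higher in the same libraries. Besides the excitatory sum, Slc17a7, the vesicular glutamate transporter of excitatory neurons, had a log2 fold change of 0.16 with no overlap (limma adjusted p = 0.66), and the astrocyte list summed to 621 to 626 FPKM in controls and 645 to 694 in CKO, with all 6 genes higher and none called. Their part in the levels of Pvalb, Sst and Vip was not tested.

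The level of Npy spread widely among the Dnmt3a Control libraries, at 97.79, 125.8 and 130.6 FPKM, and was 129.1, 137.0 and 142.6 in CKO. The lowest CKO library lay just under the highest control, and the log2 fold change was 0.22 (95% interval -0.07 to 0.50). It ran from 0.09, without Control replicate 1, the low library, to 0.30 when 1 library was left out, and was 0.27 without the library labelled Dnmt3a Control replicate 2. Reln (-0.09), Htr3a (-0.00) and Lhx6 (-0.02) had log2 fold changes whose 95% intervals held 0, the widest from -0.38 to 0.37 for Htr3a. Without the library labelled Dnmt3a Control replicate 2 these were -0.11, 0.08 and -0.04, and those of Gad1, Gad2 and Slc32a1, described last, were 0.09, -0.08 and 0.13, none called. Of the 10 markers 6 were higher and 4 lower, with a median of 0.09 beside 0.01 over all rows.

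**Figure D2:**
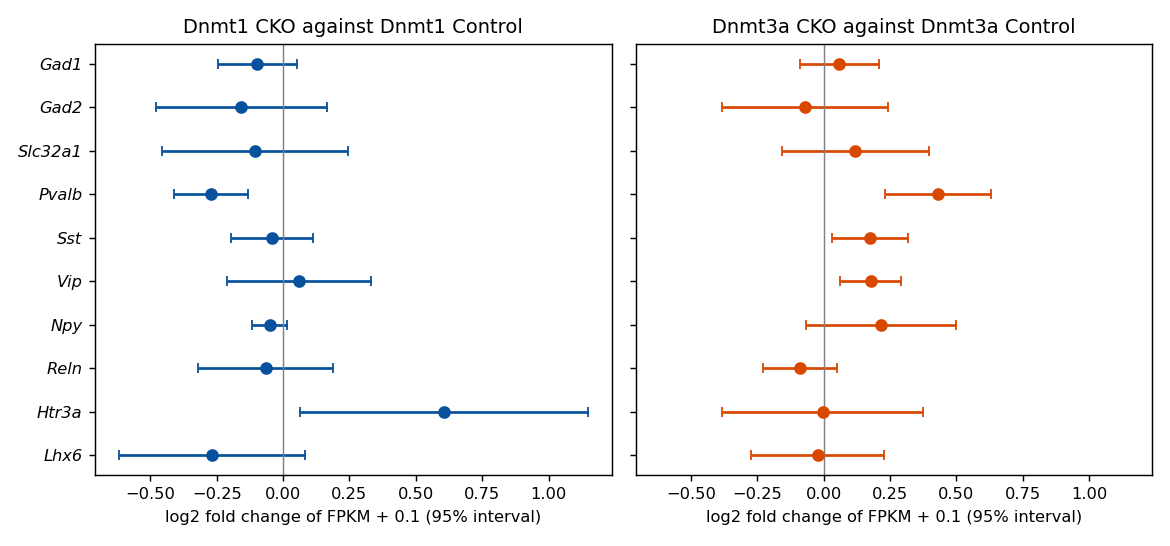
Log2 fold change of each marker in Dnmt1 CKO (left) and Dnmt3a CKO (right) against the controls of the same line (horizontal axis, log2 of FPKM + 0.1); points are limma estimates and bars their 95% intervals. Pvalb is the marker whose interval lies below 0 on the left and above 0 on the right, from -0.41 to -0.13 and from 0.23 to 0.63.

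The direct test of the difference between the lines used all 12 libraries. For Pvalb the Dnmt1 effect minus the Dnmt3a effect was -0.70 on the log2 scale (SE 0.105, 95% interval -0.93 to -0.47; limma adjusted p = 0.0057). It was called in all 25 alternative fits, with values from -0.77 to -0.64 and adjusted p from 0.002 to 0.057, and without the library labelled Dnmt3a Control replicate 2 it was -0.77 (adjusted p = 0.0038). Of all rows, 2.13% were called in this test, and Pvalb was the 1 of 10 markers among them. The control groups of the lines had 17.95 and 20.26 FPKM of Pvalb, with no overlap (highest 19.03, lowest 19.12). The oligodendrocyte list moved with it: 8 of its 9 genes were called in the same direction in this test, and its part in the result was not tested. The astrocyte gene Slc1a2, a glutamate transporter, was called as well (-0.21, limma adjusted p = 0.097).

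Sst (-0.21) and Htr3a (0.61) had unadjusted limma p of 0.027 and 0.049 in this test and did not pass (adjusted p = 0.38 and 0.47). For the other markers the log2 difference ran from -0.27 for Npy to 0.02 for Reln. A ratio within a library does not depend on how libraries were scaled. The log2 ratio of Pvalb to Sst was -3.95, -3.69 and -3.71 in Dnmt1 Control and -3.94, -4.08 and -4.03 in Dnmt1 CKO, so the groups overlapped by 1 control library. It was -3.52, -3.47 and -3.67 in Dnmt3a Control and -3.28, -3.48 and -3.14 in Dnmt3a CKO, again with overlap. The mean differences, CKO minus control, were -0.23 and 0.26, given without a test, and the latter was 0.30 without the library labelled Dnmt3a Control replicate 2.

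The ratio of medial eminence markers (mean log2 level of Lhx6, Pvalb and Sst) to caudal eminence markers (Vip, Htr3a and Reln) was 2.14, 2.14 and 1.72 in Dnmt1 Control and 1.48, 1.80 and 1.53 in Dnmt1 CKO. Control replicate 3 lay below the highest CKO library. In the Dnmt3a line it was 1.75, 1.79 and 1.89 in controls and 1.99, 1.93 and 2.01 in CKO, where the groups did not overlap. The mean differences were -0.39 and 0.17, the latter 0.16 without the library labelled Dnmt3a Control replicate 2, and were given without a test. The genes contributed to these differences unevenly. In the Dnmt1 line the log2 fold changes of Lhx6, Pvalb and Sst were -0.27, -0.27 and -0.04. Those of Vip, Htr3a and Reln were 0.06, 0.61 and -0.07, so Htr3a, the marker with the lowest level, moved most. In the Dnmt3a line Pvalb moved most, by 0.43.

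Wider lists of genes of the same cells were counted. Of 16 genes listed for medial eminence-derived subclasses, all were tested and only Pvalb was called, in the Dnmt1 line and in the difference between the lines. The median of the list on the log2 scale was -0.12 for the Dnmt1 effect (3 higher, 13 lower) and 0.09 for the Dnmt3a effect (10 higher, 6 lower), beside -0.02 and 0.01 over all rows. Pthlh, a parathyroid hormone-related peptide, was chosen after its values were seen: it had 1.50, 1.78 and 1.86 FPKM in Dnmt1 Control and 1.19, 1.31 and 1.35 in CKO, with no overlap. Its log2 difference between the lines was -0.63 (SE 0.16), just outside the threshold (limma adjusted p = 0.10). Kcnc1, a potassium channel of fast-spiking cells and also chosen after its values were seen, had a difference of -0.23 (limma adjusted p = 0.12). For Kcnc2 (0.01), Cox6a2 (-0.06) and Syt2 (-0.21), genes of fast-spiking cells chosen in the same way, the adjusted p was 0.99, 0.96 and 0.63. Within the Dnmt1 and Dnmt3a lines, Cox6a2 was higher in CKO in both (log2 fold changes 0.30 and 0.36). Kcnc2 was lower in both (-0.115 and -0.121). Only Syt2 moved as Pvalb did, by -0.10 and 0.11, and none of these was called.

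**Figure D3:**
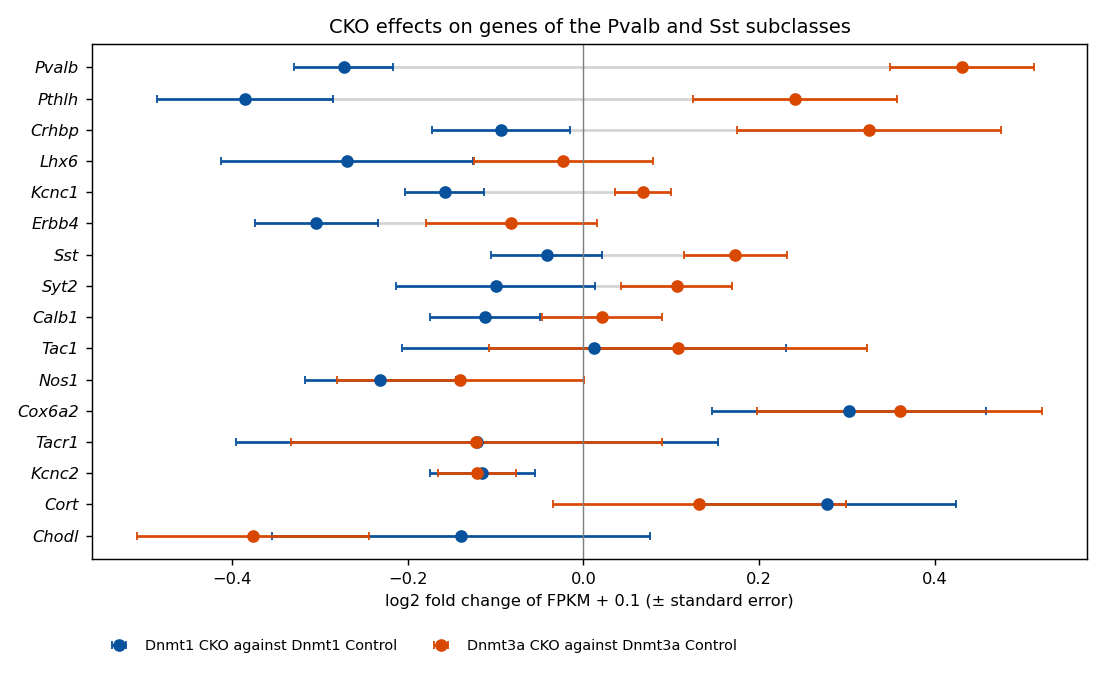
Log2 fold change (horizontal axis, log2 of FPKM + 0.1) of the 16 genes listed for medial eminence-derived subclasses in the Dnmt1 line (blue) and the Dnmt3a line (orange), with bars of 1 standard error and genes ordered by the difference between the lines. Pvalb and Pthlh show the widest gaps, -0.70 and -0.63, and Kcnc2 a gap of 0.01.

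Of 16 genes listed for caudal eminence-derived subclasses none was called in any of the 3 tests by limma. In the Dnmt1 line, the Dnmt3a line and the difference, 4, 4 and 2 had an unadjusted p below 0.05. Over all rows tested 15.0%, 7.35% and 10.6% had such a p. Cck, a neuropeptide that excitatory neurons express as well, was the highest of them at 177 FPKM and had log2 fold changes of 0.08 and 0.18 in the Dnmt1 and Dnmt3a lines (limma adjusted p = 0.80 and 0.66). Of 17 transcription factors of interneurons 14 were tested, and Sox6, a factor of medial eminence-derived cells and also of oligodendrocyte progenitors, fell in the Dnmt1 line. It went from 4.04 ± 0.10 to 3.24 ± 0.06 FPKM (SD, n = 3 each), a log2 fold change of -0.31 (SE 0.0518, limma adjusted p = 0.053). All 9 oligodendrocyte genes fell in the same libraries, and the part of that fall in the levels of Sox6 and of Slc12a2, described next, was not tested. The difference of Sox6 between the lines did not pass (-0.31, limma adjusted p = 0.13).

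On the receiving side of inhibition, 9 genes of the inhibitory postsynapse and of chloride transport were tested. Slc12a2, the chloride importer NKCC1, which glial cells also express, was at 12.4 ± 0.65 FPKM in Dnmt1 Control and fell to 8.17 ± 0.23 in Dnmt1 CKO (SD, n = 3 each; log2 fold change -0.60, SE 0.049; limma adjusted p = 0.0048). It was 13.5 and 13.7 FPKM in Dnmt3a Control and CKO, and the difference between the lines passed (-0.61, limma adjusted p = 0.013). Slc12a5, the chloride exporter KCC2 of mature neurons, differed by -0.03 on the log2 scale between Dnmt1 CKO and Dnmt1 Control (95% interval -0.09 to 0.03). Apart from Slc12a2, the 8 other genes of this list were not called in any test.

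The genes of GABA synthesis and release did not pass in any comparison. Gad1, the main glutamate decarboxylase, was at 72.58, 66.96 and 70.39 FPKM in Dnmt1 Control and at 60.83, 70.24 and 65.33 in Dnmt1 CKO, and at 70.21, 75.69 and 72.71 in Dnmt3a Control and 77.25, 80.92 and 69.93 in Dnmt3a CKO. The groups overlapped in both lines, with log2 fold changes of -0.10 (95% interval -0.25 to 0.05) and 0.06 (-0.09 to 0.21). Gad2, the synaptic decarboxylase, had log2 fold changes of -0.16 (-0.48 to 0.16) and -0.07 (-0.38 to 0.24), and Slc32a1, the vesicular GABA transporter, of -0.11 (-0.46 to 0.25) and 0.12 (-0.16 to 0.40). Of the 9 genes listed for GABA synthesis, transport and breakdown, limma called none in any test, and 1 had an unadjusted p below 0.05, in the Dnmt1 line. In that line 15.0% of all rows tested had such a p.

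Spread within groups was large for Gad2 and Slc32a1. Gad2 was at 37.35, 28.51 and 28.51 FPKM in Dnmt1 Control, 25.76, 31.55 and 26.92 in Dnmt1 CKO, 31.63, 30.04 and 30.11 in Dnmt3a Control and 31.03, 33.58 and 23.68 in Dnmt3a CKO. Slc32a1 was at 33.29, 27.13 and 28.60 FPKM in Dnmt1 Control, 23.51, 33.34 and 26.38 in Dnmt1 CKO, 28.52, 28.69 and 27.86 in Dnmt3a Control and 32.91, 34.70 and 25.58 in Dnmt3a CKO. Both genes were high in Dnmt1 Control replicate 1 and Dnmt1 CKO replicate 2 and low in Dnmt3a CKO replicate 3, relative to the other libraries of the group. The log2 ratio of Gad1 to Gad2 ran from 0.96 to 1.30 in Dnmt1 Control, 1.15 to 1.28 in Dnmt1 CKO, 1.15 to 1.33 in Dnmt3a Control and 1.27 to 1.56 in Dnmt3a CKO, with overlap in both lines. Projection neurons of the striatum also use GABA and express all 3 genes, and the tissue label names only cortex. The 9 listed striatal genes summed to 103 to 220 FPKM over the libraries, and none was at 0 in any: Ppp1r1b was at 56.4 to 134 FPKM, Adora2a at 5.95 to 15.0 and Drd2 at 2.97 to 8.41. The groups overlapped in this sum, at 103 to 209 FPKM in Dnmt1 Control, 125 to 220 in Dnmt1 CKO, 129 to 202 in Dnmt3a Control and 117 to 219 in Dnmt3a CKO, and none of the 8 genes tested was called.

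Over the 12 libraries the log2 level of Slc32a1 had a Pearson correlation of 0.75 (Spearman 0.69) with the mean log2 level of the striatal list, and it was 0.78 within the Dnmt1 line, 0.67 within the Dnmt3a line and 0.78 without the 2 libraries farthest from the median. For Gad2 the values were 0.67 (Spearman 0.58; 0.64, 0.72 and 0.61) and for Gad1 0.63 (Spearman 0.61; 0.75, 0.72 and 0.70). Pvalb gave -0.04 (Spearman -0.19; -0.20, -0.30 and 0.34), so its value turned sign without the 2 farthest libraries. Sst, Lhx6, Reln, Npy, Htr3a and Vip gave Pearson correlations of 0.35, 0.32, 0.23, 0.17, 0.17 and -0.43. Without the 2 farthest libraries these were 0.66, 0.48, -0.05, 0.52, -0.67 and -0.15. These are descriptions over libraries of similar depth in which the levels of both striatal and choroid plexus genes varied. With the striatal level as a covariate, an alternative chosen after it was seen, the difference of Pvalb between the lines was -0.70 (limma adjusted p = 0.0045), and its Dnmt1 effect was -0.28 and no longer called (adjusted p = 0.14).

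**Figure D4:**
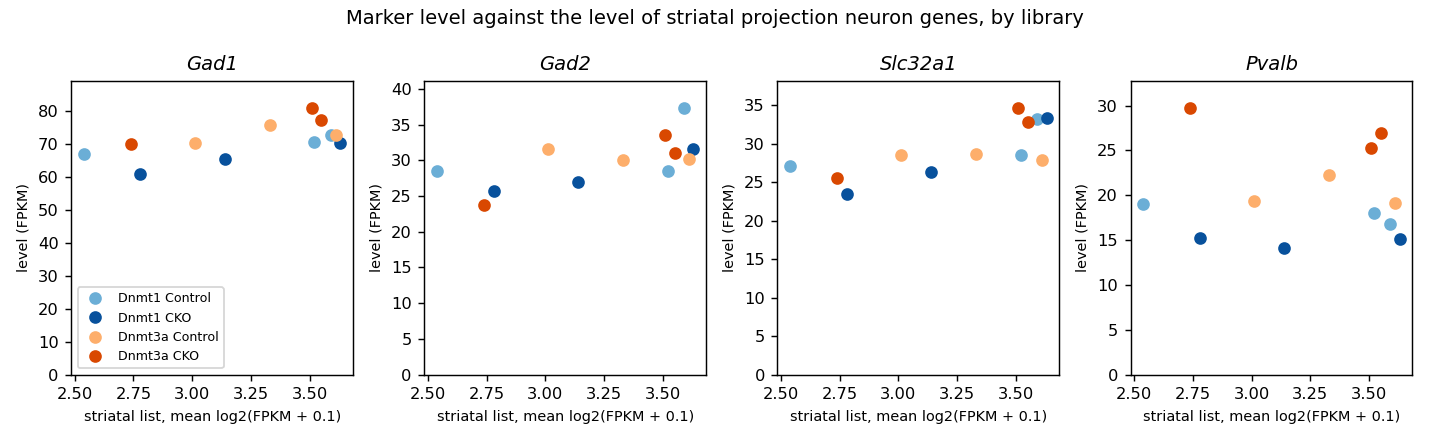
Level of Gad1, Gad2, Slc32a1 and Pvalb (vertical axis, FPKM, from 0) against the mean log2(FPKM + 0.1) of the striatal genes (horizontal axis), 1 point per library and 1 colour per group. Gad1, Gad2 and Slc32a1 are higher where the striatal genes are higher (Pearson correlations of log2 levels 0.63, 0.67 and 0.75), while for Pvalb the correlation is -0.04, and 0.34 without the 2 libraries farthest from the median of the horizontal axis.

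Reln is also made by Cajal-Retzius cells of the outermost cortical layer. Of 6 genes listed for these cells only Cacna2d2 reached the minimum level (7.21 FPKM), and it was not called in any test; at most 1 of the 6 was at 0 in a library. The level of a gene averaged over the 10 markers, each standardised over the libraries, was lowest in Dnmt1 CKO replicates 1 and 3 (-0.74 and -0.73) and highest in Dnmt3a CKO replicate 2 (1.11). Among all other rows tested, Ccdc92 (Pearson correlation 0.95), Tsc22d4 (0.94), Car14 (0.93), Gfra1 (0.92) and Stk39 (0.92) had the log2 levels most like this mean over the 12 libraries.

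By the GENCODE M21 annotation of GRCm38, 4 of the 10 markers lie on chromosome 2, at chr2:70553072-70602014 (Gad1), chr2:22622205-22693874 (Gad2), chr2:158610767-158615748 (Slc32a1) and chr2:36081953-36105408 (Lhx6). Pvalb lies at chr15:78191114-78206400 on the minus strand and Sst at chr16:23889573-23890958. Vip lies at chr10:5639218-5647617, Npy at chr6:49822710-49829507, Reln at chr5:21884454-22344702 and Htr3a at chr9:48899213-48911099.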

How the data were processed

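RNA was extracted from dissected cortices and polyA RNA-seq libraries were sequenced; the authors aligned reads to mm10 with TopHat, used Cufflinks for quantification and deposited a table of FPKM by gene symbol, which holds no counts. Any further scaling between libraries is not given in the sources used here. Of 23850 deposited rows 302 exact duplicates were removed, and the 12 sample columns were matched to samples by the codes in the sample descriptions.

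Here, log2(FPKM + 0.1) was fitted with limma 3.58.1 in R 4.3.3 (lmFit, eBayes with a mean-variance trend) on the 14115 rows whose mean reached 0.5 FPKM, per line and, for the difference between lines, over 12 libraries. FPKM gives no counting interval. In each library 120 to 136 rows with a mean above 5 FPKM are at 0, which can be failed estimates; no marker was. Each p measures the spread between mice. Summaries were made in Python 3.11.15 (pandas 2.3.3, numpy 2.4.6, scipy 1.17.1) and plots in matplotlib 3.10.9. The fits were tested on simulated data. Samples were grouped by title. The replicate numbers did not pair the samples (correlations between -0.08 and 0.04).

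The markers and the 15 gene lists were chosen with earlier results of these data known. The rule for naming genes took the markers, the 3 highest genes of each list and its called genes, the 5 most similar rows, Dnmt1, Dnmt3a and Olig1, not all of which are printed; other genes were chosen after their values were seen. Results were recomputed with pseudocounts 1 and 0.01, with the filter on the mean at 0.1 and 1 FPKM and without it, with eBayes untrended and robust, median-ratio and quantile scaling, a replicate block, Xist as covariate, all libraries in 1 model, an FDR of 5%, each library left out, and the striatal level as covariate, added after seeing the data. No other file was used, and 0 columns were left without a sample. Values of some listed genes are not reported here.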

Additional observations from a re-analysis of the deposited data

Results flagged for a closer look

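The CKO effect on Pvalb differed between the lines in a direct test (log2 difference -0.70, SE 0.105, limma adjusted p = 0.0057). All 3 Dnmt1 CKO libraries were below their controls and all 3 Dnmt3a CKO libraries above theirs. No cause was tested.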

How the results depend on the processing

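The 3 comparisons of the 10 markers were refitted under 20, 20 and 25 alternatives. Direction and call stayed as reported in 183 of 200, 192 of 200 and 244 of 250 fits of a marker. In the Dnmt1 line 444 rows were called, with 162 under the replicate block and 263 at an FDR of 5%, and 199 to 341 when a library was left out (206 without Control replicate 2, 199, 266 and 216 without CKO replicates 1, 2 and 3). The number of markers called there was 0 with a minimum mean of 0.1, no filter, no trend, median-ratio or quantile scaling, the replicate block (Pvalb adjusted p = 0.24), Xist or the striatal level as covariate and an FDR of 5%, and 0 to 1 when a library was left out, kept only without Control replicate 1. In the Dnmt3a line 2 rows were called, 17 with no filter, 1 with a pseudocount of 1, a minimum mean of 1, the replicate block, Xist or the striatal level as covariate, an FDR of 5% or all libraries in 1 model, and 2 to 5 when a library was left out (4, 5 and 4 without Control replicates 1 and 3 and CKO replicate 1). The difference between the lines gave 300 rows, and 206 to 327 with a library left out. The log2 fold change of Htr3a in the Dnmt3a line was 0.014 under quantile scaling. With a library left out, direction turned for Vip (range -0.056 to 0.158), Reln (-0.132 to 0.055) and Slc32a1 (-0.246 to 0.005) in the Dnmt1 line, for Htr3a (-0.132 to 0.078), Lhx6 (-0.114 to 0.061) and Gad2 (-0.174 to 0.078) in the Dnmt3a line, and for Gad2 (-0.235 to 0.043) and Reln (-0.042 to 0.145) in the difference; none of these was called. The cause was not tested. Replicate numbers are shared between groups but the samples did not pair by them; among the calls of the 10 markers, the block changed only that of Pvalb in the Dnmt1 line. With 3 mice a group, the median standard error of a log2 fold change was 0.07, and the number of reads was not given.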
